A study of Mus musculus with 18 samples.

Results

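The genes described here are those of the lysosome and of autophagy, taken from a list of 38 gene symbols. The rule uses no measured value, but the list was chosen with earlier results of these data known. Of these symbols, 36 had a row among the 22558 genes of both deposited gene tables, and the transcription factors Tfeb and Tfe3 are not analysed here. The 36 genes comprised 6 lysosomal membrane proteins or channels, 16 soluble hydrolases or cofactors, 4 subunits of the V-ATPase, 6 genes of autophagy initiation and conjugation, and 4 genes of the Atg8 family and its receptor p62. Retina and RPE/choroid (the retinal pigment epithelium with the vascular choroid behind it) were profiled in 18 libraries, 3 for each genotype in each tissue. The mice were Abca4 knockouts (Abca4-/-), mice homozygous for a knock-in allele that encodes both L541P and A1038V, and wild-type mice, all 30 days old and all on a mixed background of 129SV and C57BL/6. Total RNA was depleted of ribosomal RNA and made into stranded libraries. Nothing in the labels ties the 3 libraries of a group to separate animals. P-values therefore measure only the spread between these libraries, which may be technical. By the sex-linked transcripts Xist and Ddx3y, libraries of both sexes were read in knockout retina, wild-type retina and knock-in RPE/choroid. RPE and choroid were taken as 1 sample, so a value for RPE/choroid is no measure of the epithelium alone.

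The lysosome is the acidic compartment in which cells break down material from outside and, through autophagy, their own components. The V-ATPase pumps protons into it, soluble hydrolases digest proteins, lipids and glycans, and membrane proteins such as Lamp1 and Lamp2 line it. In autophagy a membrane grows around the cargo, Atg8 proteins are attached to it, and the finished autophagosome fuses with a lysosome. RPE cells take up shed tips of photoreceptor outer segments every day and digest them in lysosomes, and undigested retinoid adducts build up there as lipofuscin when the flippase Abca4 of photoreceptor discs is missing.

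Depth was 14.6 to 30.0 M fragments assigned to genes per RPE/choroid library and 11.6 to 23.6 M per retinal library, and the lowest value of a member in any library was 75 fragments (Gusb). Abca4 itself stood at 73.9 to 81.8 FPKM in knockout, 182 to 233 in knock-in and 228 to 282 in wild-type retina. It stood at 25.6 to 26.5 FPKM in knockout, 36.6 to 42.5 in knock-in and 35.4 to 59.5 in wild-type RPE/choroid. FPKM are fragments scaled to transcript length and library size. The deposited FPKM did not follow the fragments by a fixed factor across libraries, as the values of Lamp2 and Ppt1 below show. RPE markers (9 genes) summed to 7203 to 11956 FPKM over the RPE/choroid libraries, against 317 to 422 over the retinal ones. Rod markers (9 genes) summed to 77.1 to 412 FPKM in 8 of the RPE/choroid libraries and to 2204 in the wild-type library numbered 2, against 21448 to 23780 in retina. The 3 libraries of a group carry the numbers 0 to 2 in the deposited tables.

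Many lysosomal genes are known to carry, near their start, an octamer bound by Tfeb and its relatives, which contains the E-box CACGTG. The windows of RefSeq (GRCm38.p6) that run from 250 bases before to 50 bases after a gene's start were at hand for 29 of the 36 members, in 31 windows. The E-box CACGTG lay in the windows of 12 of the 29 genes (41.4%), against 11.1% of the 11291 tested genes with a window. By window, the shares were 38.7% of 31 and 9.26% of 14374. The octamer TCACGTGA, which holds the E-box within it, lay in 5 member genes (17.2%), against 1.96% of the tested genes with a window, or 16.1% and 1.63% by window. Over all 32851 RefSeq windows of this length, 7.15% held the E-box and 0.974% the octamer. Both strings read the same on both strands, so 1 search covered both. The windows were not matched for base composition, and a match is a description of the sequence, not a bound site.
The 5 windows with an octamer are shown here because they hold the longer string, and that of Lamp1 because it holds 4 E-boxes, the highest number among the members. Each is written 5′ to 3′ on the gene's own strand, with its GRCm38.p6 position, and capitals mark the octamer or, where it is incomplete, the E-box.
Gla, chrX:134600956-134601255, minus strand: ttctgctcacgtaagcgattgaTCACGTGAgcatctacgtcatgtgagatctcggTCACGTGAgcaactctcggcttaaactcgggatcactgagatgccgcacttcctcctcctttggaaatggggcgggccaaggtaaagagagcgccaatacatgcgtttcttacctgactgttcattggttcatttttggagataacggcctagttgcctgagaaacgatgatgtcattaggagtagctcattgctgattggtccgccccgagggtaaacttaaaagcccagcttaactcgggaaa
Mcoln1, chr8:3500269-3500568, plus strand: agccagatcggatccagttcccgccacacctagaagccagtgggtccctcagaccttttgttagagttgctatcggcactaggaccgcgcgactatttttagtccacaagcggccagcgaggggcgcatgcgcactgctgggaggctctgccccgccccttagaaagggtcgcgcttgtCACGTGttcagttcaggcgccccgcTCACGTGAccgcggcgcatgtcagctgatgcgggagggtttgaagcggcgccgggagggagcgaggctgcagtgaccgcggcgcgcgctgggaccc
Cln3, chr7:126583187-126583486, minus strand: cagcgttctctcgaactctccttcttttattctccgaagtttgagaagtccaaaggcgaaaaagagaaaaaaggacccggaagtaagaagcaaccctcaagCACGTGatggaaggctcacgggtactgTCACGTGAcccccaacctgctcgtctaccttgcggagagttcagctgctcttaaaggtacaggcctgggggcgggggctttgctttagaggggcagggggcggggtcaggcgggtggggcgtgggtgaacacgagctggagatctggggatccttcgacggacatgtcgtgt
Atp6v1a, chr16:44139210-44139509, minus strand: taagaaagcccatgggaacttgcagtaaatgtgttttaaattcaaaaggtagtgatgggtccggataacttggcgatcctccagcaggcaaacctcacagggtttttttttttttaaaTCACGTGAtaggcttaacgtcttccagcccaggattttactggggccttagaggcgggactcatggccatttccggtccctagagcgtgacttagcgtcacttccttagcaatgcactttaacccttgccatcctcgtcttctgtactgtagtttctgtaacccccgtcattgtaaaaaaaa
Atp6v0d1, chr8:105566015-105566314, minus strand: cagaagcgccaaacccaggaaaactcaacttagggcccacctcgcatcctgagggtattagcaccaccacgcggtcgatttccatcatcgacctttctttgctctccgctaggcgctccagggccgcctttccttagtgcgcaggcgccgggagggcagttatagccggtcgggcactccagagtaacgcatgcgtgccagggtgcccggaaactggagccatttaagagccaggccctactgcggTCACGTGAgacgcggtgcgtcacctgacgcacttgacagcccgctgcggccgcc
Lamp1, chr8:13158911-13159210, plus strand: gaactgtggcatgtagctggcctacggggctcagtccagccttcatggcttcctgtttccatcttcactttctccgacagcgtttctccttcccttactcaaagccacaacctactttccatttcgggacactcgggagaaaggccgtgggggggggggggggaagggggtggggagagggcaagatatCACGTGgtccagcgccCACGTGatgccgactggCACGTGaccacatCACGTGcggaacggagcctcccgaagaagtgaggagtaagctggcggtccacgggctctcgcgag
The start of the window of Gla, the alpha-galactosidase that is missing in Fabry disease, holds 2 octamers, whose E-boxes begin 227 and 194 bases before the gene's start. The 4 E-boxes of Lamp1 begin 61, 45, 28 and 15 bases before the start. In Atp6v0d1 the E-box of the octamer begins 3 bases before it.

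Members were expressed well above the typical gene in both tissues. The median over the 36 members was 51.9 FPKM in knockout, 55.8 in knock-in and 56.7 in wild-type RPE/choroid, against medians over all genes of 3.52, 3.50 and 3.59. In retina it was 32.0 FPKM in knockout, 30.9 in knock-in and 31.2 in wild type, against 2.62, 2.63 and 2.51 over all genes. Psap, the precursor of the saposins that help hydrolases reach their lipids, was the highest member in every group. Its mean was 912 FPKM in knockout, 897 in knock-in and 863 in wild-type RPE/choroid, where it made up 24.2% to 26.1% of the summed FPKM of the members. In retina its mean was 329, 320 and 306 FPKM in knockout, knock-in and wild type. The lowest member in retina was Gusb, the beta-glucuronidase, with 2.93, 2.78 and 2.69 FPKM in knockout, knock-in and wild type. No member fell below 7.50 FPKM in a group mean of RPE/choroid. Members counted together with a neighbour at the same listed position were Glb1 (Tmppe), Becn1 (Cntd1), Atp6v1b2 (Slc18a1), Npc1 (3110002H16Rik) and Atg5 (Mir1929), so their fragments may be shared.

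**Figure D1:**
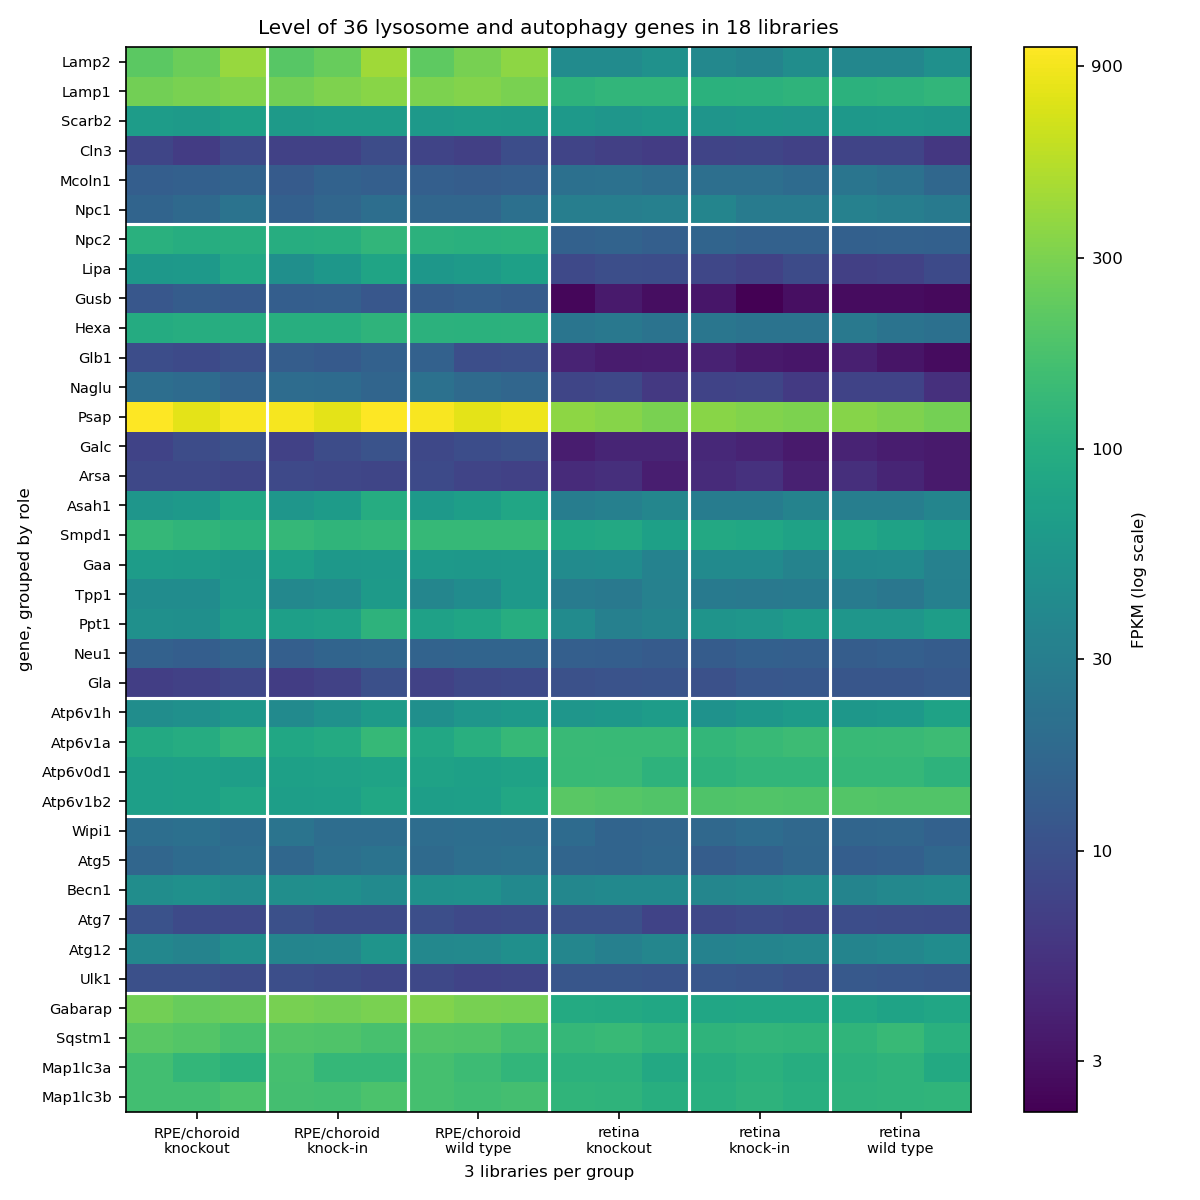
Level of the 36 genes in each of the 18 libraries, as FPKM on a log colour scale, with genes grouped by role (rows) and the 3 libraries of each group side by side (columns). Psap is the brightest row in both tissues, and hydrolases such as Npc2, Lipa, Hexa and Gusb are brighter in RPE/choroid than in retina, while Atp6v1b2 is darker there.

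Wild-type RPE/choroid differed from wild-type retina in most members. Of the 36 genes, 25 were higher in RPE/choroid, 8 were lower and 3 (Cln3, Atg7 and Atg12) did not pass, by edgeR's quasi-likelihood test on counts with a Benjamini-Hochberg adjusted p under 0.05. The 2 tissues differed in most genes of the genome, 85.9% of 16222 tested genes, with 44.0% higher and 41.9% lower. Against that background the members split 69.4% to 22.2%, and their median difference was log2 0.54, against 0.04 over all tested genes. A difference of at least 2-fold was seen upward in 13 members and downward in 1 (36.1% and 2.78%), against 30.0% and 21.8% of all tested genes. In such bulk samples, fewer cells of a type and less RNA per cell cannot be told apart. Sums of other markers differed between the tissues as well. The 6 melanocyte markers are pigment genes and do not tell melanocytes from the pigmented RPE. They summed to 6493 to 6530 FPKM in wild-type RPE/choroid and to 10.7 to 21.5 in retina. The 8 macrophage and microglia markers summed to 144 to 201 and 14.2 to 15.9. The 6 skeletal muscle markers summed to 3128 to 4471 FPKM in wild-type RPE/choroid and 4.03 to 5.80 in retina, where 2 of them were at 0 in a library. Their part in the tissue difference was not tested. The authors scaled FPKM in each tissue's table, so FPKM are given below as levels and folds come from the counts.

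Soluble hydrolases and their cofactors made up most of the rise in RPE/choroid: 15 of 16 were higher, 10 of them at least 2-fold, and 1 was lower (median log2 1.13). Npc2, which carries cholesterol out of the lysosomal lumen, had 112, 108 and 109.7 FPKM in wild-type RPE/choroid, against 14.6, 14.8 and 14.5 in retina. Every RPE/choroid library lay far above every retinal one, and the fitted difference was log2 2.95 (SE 0.06, adjusted p = 1.35e-15). Lipa, the acid lipase that frees cholesterol from its esters, had 57.2, 61.7 and 71.4 FPKM in RPE/choroid, against 7.03, 7.54 and 8.90 in retina (log2 2.90, SE 0.08, adjusted p = 8.61e-15). The groups were again far apart, with the lowest RPE/choroid library above the highest retinal one.
Gusb had 13.3, 14.3 and 13.3 FPKM in wild-type RPE/choroid, against 2.74, 2.75 and 2.59 in retina (log2 2.38, SE 0.14, adjusted p = 6.49e-11). Hexa, the alpha subunit of the hexosaminidase that degrades GM2 ganglioside, had 112, 110.3 and 112 FPKM in RPE/choroid, against 26.3, 22.8 and 21.6 in retina (log2 2.27, SE 0.05, adjusted p = 2.61e-15). In both genes the spread within a tissue was small beside the gap between the tissues. The galactosidase Glb1 averaged 11.6 ± 2.98 FPKM in RPE/choroid and 3.25 ± 0.53 in retina (SD, n = 3 each, as for all means below; log2 1.88). Naglu, which degrades heparan sulfate, averaged 19.0 ± 2.44 FPKM in RPE/choroid and 6.83 ± 1.37 in retina (log2 1.70).
Psap had 944, 784 and 860.2 FPKM in wild-type RPE/choroid, against 328, 309 and 282 in retina (log2 1.67, SE 0.05, adjusted p = 3.97e-14). The groups did not overlap, and because its level was so high this was also the largest gap in FPKM among the members. Galc, which degrades galactosylceramide, averaged 9.37 ± 0.98 FPKM in RPE/choroid and 3.72 ± 0.32 in retina (log2 1.22), and the arylsulfatase Arsa 7.99 ± 0.81 and 4.28 ± 0.85 (log2 1.04). The acid ceramidase Asah1 averaged 71.0 ± 10.7 FPKM in RPE/choroid and 32.1 ± 3.06 in retina (log2 1.01), and the acid sphingomyelinase Smpd1 133 ± 0.92 and 75.8 ± 10.7 (log2 0.96). Their libraries did not overlap between the tissues.
The glucosidase Gaa averaged 59.0 ± 1.51 FPKM in RPE/choroid and 38.2 ± 4.80 in retina (log2 0.83). The peptidase Tpp1 averaged 46.4 ± 11.3 FPKM in RPE/choroid and 28.5 ± 3.53 in retina (log2 0.55), and the thioesterase Ppt1 85.2 ± 13.2 and 59.0 ± 6.33 (log2 0.37). The sialidase Neu1 had the smallest rise, 16.0 ± 0.23 FPKM in RPE/choroid and 13.6 ± 0.54 in retina (log2 0.25, SE 0.06, adjusted p = 6.08e-04). Gla was the exception among the hydrolases, with 7.40, 8.39 and 8.82 FPKM in RPE/choroid, against 11.4, 11.5 and 12.3 in retina. Its RPE/choroid libraries all lay under the retinal ones (log2 -0.60, SE 0.07, adjusted p = 3.33e-07).

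The V-ATPase subunits went the other way: all 4 were lower in wild-type RPE/choroid (median log2 -0.58). Atp6v1b2, a B subunit of the part that splits ATP, had 68.0, 70.3 and 87.3 FPKM in RPE/choroid, against 195, 191 and 192 in retina. The tissues did not overlap, and this was the largest fall among the members (log2 -1.32, SE 0.07, adjusted p = 1.07e-11). Atp6v0d1, of the part in the membrane, averaged 74.5 ± 1.74 FPKM in RPE/choroid and 126 ± 7.90 in retina (log2 -0.65). The catalytic subunit Atp6v1a averaged 108 ± 22.6 FPKM in RPE/choroid and 142 ± 6.10 in retina (log2 -0.51). Atp6v1h averaged 54.4 ± 6.61 FPKM in RPE/choroid and 63.8 ± 10.3 in retina, with overlapping FPKM, and its difference was the smallest of the 4 (log2 -0.28, adjusted p = 5.19e-04). Its call was lost with limma on log2(FPKM + 1) (adjusted p = 0.219) and on log2(FPKM + 0.1) (adjusted p = 0.217).

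Among the 6 membrane proteins, 3 were higher and 2 lower. Lamp2, a main protein of the lysosomal membrane that also serves autophagy, had 221, 287 and 360.0 FPKM in wild-type RPE/choroid, against 37.7, 37.4 and 47.5 in retina. Its counts per M assigned fragments (CPM) spread less, 642, 719 and 652 in RPE/choroid against 122, 119 and 121 in retina, and the fitted difference was log2 2.55 (SE 0.06, adjusted p = 3.42e-15). Lamp1, the other main membrane protein, averaged 305 ± 17.4 FPKM in RPE/choroid and 118 ± 5.53 in retina (log2 1.39). Both lysosome-associated proteins thus had clearly separate levels in the 2 tissues.
Scarb2, the receptor that carries glucocerebrosidase to lysosomes, averaged 62.1 ± 1.06 FPKM in RPE/choroid and 58.5 ± 1.22 in retina. This was the smallest called difference among the members (log2 0.15, adjusted p = 0.0104), and the call was lost without the retinal wild-type library 2 (adjusted p = 0.234) or the RPE/choroid wild-type library 1 (adjusted p = 0.0541). It was also lost with the compared groups only (adjusted p = 0.0598) and with limma on log2(FPKM + 1) (adjusted p = 0.276) or log2(FPKM + 0.1) (adjusted p = 0.296). Npc1, the membrane partner of Npc2, averaged 18.4 ± 2.63 FPKM in RPE/choroid and 30.2 ± 2.63 in retina (log2 -0.72, SE 0.09, adjusted p = 1.23e-06). It was thus lower where Npc2 was higher. The calcium channel Mcoln1 averaged 13.9 ± 0.47 FPKM in RPE/choroid and 21.01 ± 3.45 in retina (log2 -0.48). Cln3, affected in juvenile Batten disease, averaged 8.13 ± 1.24 and 7.23 ± 1.03 FPKM and did not pass (log2 0.14, adjusted p = 0.0842).

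The autophagy genes differed less than the hydrolases. Of the 6 genes of initiation and conjugation, 3 were higher by log2 0.34 to 0.46, 1 was lower and 2 did not pass. Wipi1, which binds the growing membrane, averaged 20.02 ± 0.37 FPKM in RPE/choroid and 16.1 ± 1.00 in retina (log2 0.46). Atg5, part of the conjugation machinery, averaged 20.4 ± 1.89 and 15.3 ± 1.76 FPKM (log2 0.41), and Becn1, of the lipid kinase complex, 45.8 ± 4.15 and 38.5 ± 3.11 (log2 0.34).
Ulk1, the kinase that starts autophagy, was the lower gene, with 8.42, 7.64 and 8.05 FPKM in RPE/choroid, against 12.2, 11.8 and 11.3 in retina (log2 -0.38, SE 0.10, adjusted p = 0.00235). Its libraries did not overlap. Atg7, the activating enzyme of the conjugation, averaged 9.10 ± 0.56 FPKM in RPE/choroid and 9.29 ± 0.22 in retina (log2 0.09, adjusted p = 0.268). Atg12, which is joined to Atg5, averaged 42.0 ± 4.54 FPKM in RPE/choroid and 38.8 ± 4.74 in retina (log2 0.02, adjusted p = 0.792).
All 4 genes of the Atg8 group were higher. Gabarap, an Atg8 protein, had 313, 288 and 282 FPKM in RPE/choroid, against 85.0, 77.7 and 83.7 in retina, with no overlap (log2 1.91, SE 0.08, adjusted p = 6.76e-13). Sqstm1, which encodes the receptor p62, averaged 179 ± 16.7 FPKM in RPE/choroid and 122 ± 14.6 in retina (log2 0.78). Map1lc3a averaged 146 ± 21.04 and 107 ± 14.8 FPKM (log2 0.68), and Map1lc3b, the other LC3 gene, 161 ± 4.49 and 118 ± 2.42 (log2 0.53).

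**Figure D2:**
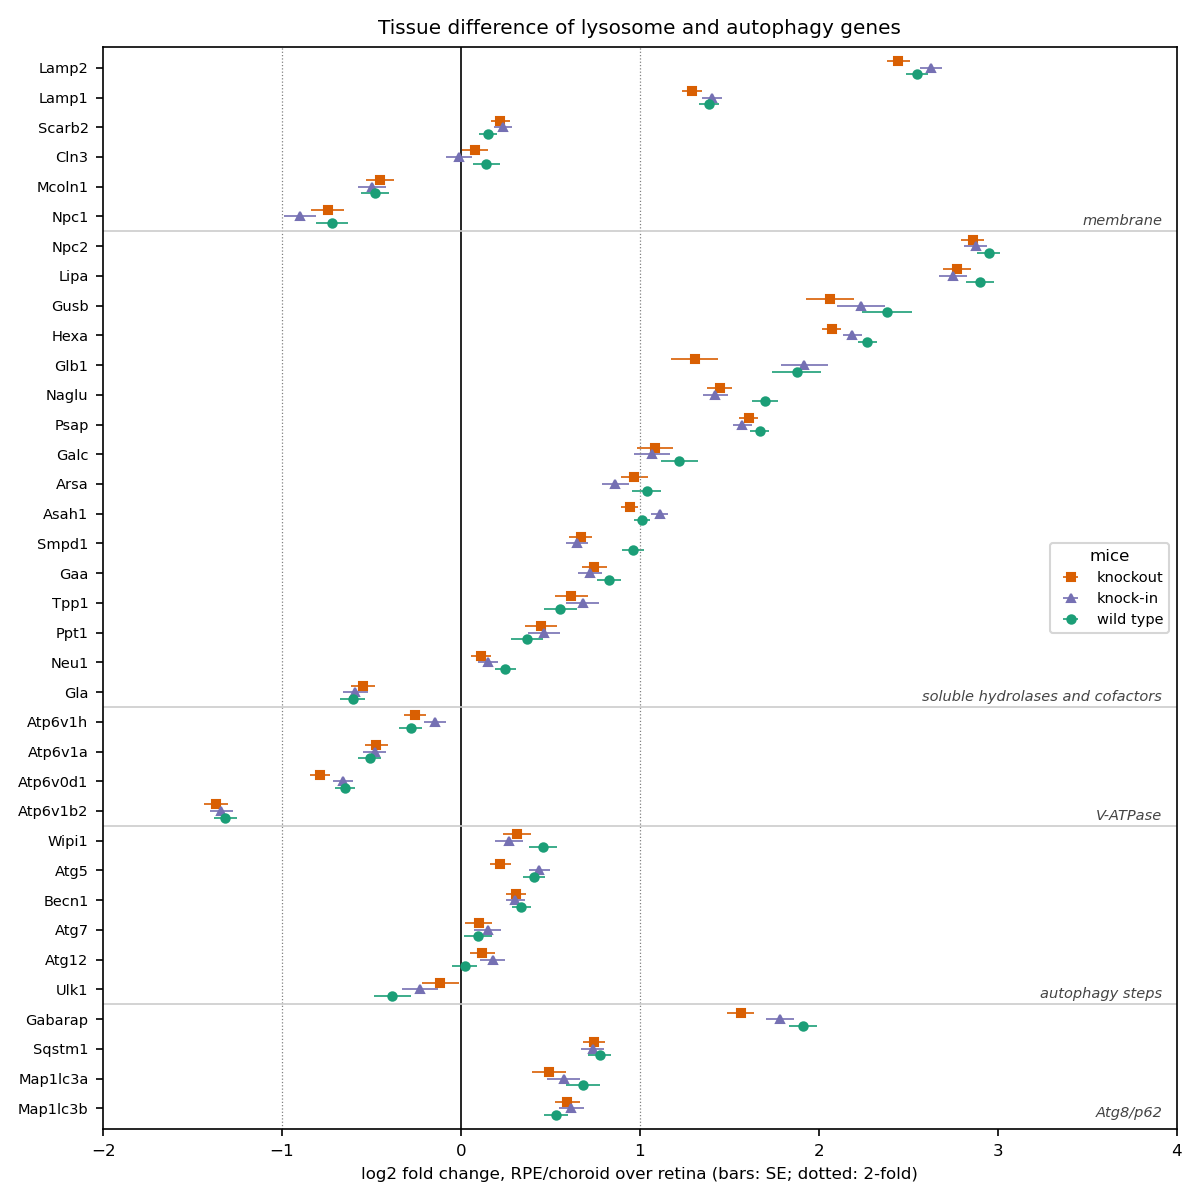
Difference of each of the 36 genes between RPE/choroid and retina as log2 fold change with its SE, grouped by role. Values for knockout, knock-in and wild-type mice come from 1 fit of all 18 libraries. Npc2 and Lipa lie near 2.9, all 4 V-ATPase subunits lie under 0, and Glb1 lies at 1.31 in knockout, 1.92 in knock-in and 1.88 in wild-type mice.

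The tissue difference was also seen in the knockout and knock-in mice. In knockout mice 24 members were higher in RPE/choroid and 7 lower (43.9% and 41.6% of all tested genes, 85.5% in all; median of members log2 0.54), and in knock-in mice 26 and 8 (44.3% and 42.1%, 86.4% in all; median log2 0.60). Called higher in all 3 genotypes were 24 members, and called lower in all 3 were Atp6v0d1, Atp6v1a, Atp6v1b2, Atp6v1h, Gla, Mcoln1 and Npc1. Atg7 and Cln3 were called in no genotype. Atg12, Neu1 and Ulk1 were called in some genotypes, but the difference between genotypes was not past the threshold for any member. In the test of that difference (an interaction of tissue and genotype over the 18 libraries), 0 of 36 members were called for knockout, where 0.136% of all genes were, and 0 for knock-in, where 0.0555% were. At an unadjusted p under 0.05 the counts were 6 and 2 members (16.7% and 5.56%, against 12.3% and 5.98% of all genes). DESeq2 gave 0 members in both. The smallest p belonged to Smpd1 in both (log2 -0.29, adjusted p = 0.195 for knockout, and log2 -0.31, adjusted p = 0.536 for knock-in).

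The tissue differences of members with and without an E-box in their promoter window overlapped. Of the 12 with an E-box, 6 were higher and 4 lower in wild-type RPE/choroid (median log2 0.28, range -0.65 to 1.88). Of the 17 with a window but no E-box, 16 were higher and 1 lower (median log2 0.96, range -0.385 to 2.95). Of the 7 without a window, 3 were higher and 3 lower. Over all tested genes, 44.0% were higher and 41.9% lower. Of the 5 genes whose octamers are printed above, Gla, Mcoln1, Atp6v1a and Atp6v0d1 were lower in RPE/choroid and Cln3 did not pass, while Lamp1 with its 4 E-boxes was higher. These counts are a description of 29 genes and carry no test.

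The other genes of the pathway, 104 symbols of which 103 had a row, resembled the members in some roles and not in others. The hydrolases again were mostly higher, whereas the other V-ATPase subunits were mostly higher and the other autophagy genes mostly lower. Of 23 other hydrolases and cofactors, 21 were higher in wild-type RPE/choroid and 1, Ids, was lower (median log2 1.34). The largest differences were in the mannosidase Manba with 11.98 ± 0.74 FPKM in RPE/choroid and 1.57 ± 0.14 in retina (log2 2.92) and in Aga with 33.5 ± 3.09 and 4.58 ± 0.85 (log2 2.89). The GM2 activator Gm2a followed (log2 2.49) and then Sumf1, which activates sulfatases (log2 2.30).
Of 18 other lysosomal membrane proteins 10 were higher and 3 lower. Cd63 had 474 ± 32.9 FPKM in RPE/choroid and 35.5 ± 3.46 in retina (log2 3.75), and the macrophage protein Cd68 12.8 ± 0.70 and 0.75 ± 0.22 (log2 4.07). Laptm5, known from blood cells, differed by log2 3.27. Lamp3 was lower (0.12 ± 0.17 FPKM in RPE/choroid and 1.37 ± 0.19 in retina, log2 -4.13).
Of 27 other autophagy genes, 5 were higher and 19 lower (median log2 -0.42). The protease Atg4c fell to 8.03 ± 2.12 FPKM in RPE/choroid, against 28.7 ± 1.84 in retina (log2 -2.01), and Atg16l1 to 8.54 ± 0.66, against 28.4 ± 0.37 (log2 -1.57). Atg2b was lower as well (log2 -1.34), and Atg4a, a relative of Atg4c, was higher (13.4 ± 0.80 and 4.26 ± 0.49 FPKM, log2 1.53).
The V-ATPase did not move as 1 unit either: of 19 other subunits tested, 12 were higher and 6 lower, and related subunits went opposite ways. Atp6v0e had 154 ± 10.2 FPKM in RPE/choroid and 15.9 ± 1.54 in retina (log2 3.27), whereas Atp6v0e2 had 49.3 ± 14.5 and 228 ± 24.5 (log2 -2.20). Atp6v1g1 had 283 ± 17.9 FPKM in RPE/choroid and 202 ± 5.04 in retina (log2 0.62), whereas Atp6v1g2 had 4.85 ± 2.76 and 53.6 ± 5.29 (log2 -3.37). Atp6v1c2 was higher but low in both tissues (0.70 ± 0.22 FPKM in RPE/choroid and 0.05 ± 0.06 in retina), and Atp6v0d2 reached 0.90 ± 0.17 FPKM in RPE/choroid and was listed at 0 in wild-type retina. Atp6v0e2 and Atp6v1g1 were named after their values were seen.
Of 15 genes of the Tfeb family and of the mTORC1 pathway that controls it, 4 were higher and 9 lower. Mitf, the Tfeb relative that governs pigment cells, had 67.2 ± 21.01 FPKM in RPE/choroid and 2.34 ± 0.35 in retina (log2 4.67). The Rag GTPase Rragd was higher (53.5 ± 8.16 and 16.3 ± 2.48 FPKM, log2 1.64) and Rragb lower (7.15 ± 2.56 and 30.9 ± 1.60 FPKM, log2 -2.16), as was Mlst8 of the mTOR complexes (log2 -1.13).

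In the comparisons of genotypes 1 member, Ppt1, passed the threshold. Ppt1 encodes the thioesterase that strips palmitate from proteins in the lysosome, and its loss causes the infantile form of neuronal ceroid lipofuscinosis, a disease in which autofluorescent material fills lysosomes. The gene tables place it on chromosome 4 of mm9 at 122513469 to 122536418. The CPM of Ppt1 was 125, 95.8 and 82.4 in knockout, 155, 162 and 165 in knock-in and 167, 166 and 172 in wild-type retina. The knockout libraries all lay under those of the other groups and were spread more widely, while knock-in lay at or just under wild type. In RPE/choroid Ppt1 had 139, 129 and 135 CPM in knockout, 206, 212 and 217 in knock-in and 203, 219 and 200.1 in wild type. There the knockout libraries again lay under all others, and knock-in and wild type overlapped.
In retina the knockout difference from wild type was log2 -0.71 (SE 0.10, edgeR adjusted p = 0.00807), a level of 61.0% of wild type by the fit, in a comparison that called 0.98% of 14699 tested genes. In RPE/choroid it was log2 -0.65 (SE 0.06, adjusted p = 0.00132), or 63.7% of wild type, where 0.472% of 15454 genes were called. Knock-in exceeded knockout by log2 0.63 in retina (adjusted p = 0.0111, 1.26% of genes called) and by log2 0.67 in RPE/choroid (adjusted p = 0.000901, 0.453% called). These comparisons share the knockout libraries with those against wild type. For knockout against wild type in retina, the call was lost without the wild-type library 0 (adjusted p = 0.0544) or 2 (adjusted p = 0.0515). For knock-in against knockout in retina, it was lost without the knock-in library 0 (adjusted p = 0.0568).
Among the marker genes, the 7 lens markers summed to 289, 3917 and 8600 FPKM in knockout, 4404, 179 and 215 in knock-in and 428, 95.3 and 19.1 in wild-type retina, in the order of the libraries given for Ppt1, and 0 of them were at 0. Among the knockout and among the knock-in libraries of retina, the one with the lowest Ppt1 held the most lens transcripts (82.4 CPM of Ppt1 in knockout and 155 in knock-in). In wild-type retina the library with the lowest Ppt1 (166 CPM) summed to 95.3 FPKM, against 428 in library 0. In no group of RPE/choroid did the library with the lowest Ppt1 hold the most lens transcripts. Their part in the result was not tested. With the mean of the RPE markers as a term in the fit, the knockout difference in retina was log2 -1.195 and kept its call (adjusted p = 2.55e-04). That term, as log2 of CPM, was 3.90 to 4.49 in knockout and 3.47 to 3.56 in wild-type retina. As these ranges did not overlap, the fit cannot separate the term from genotype, and the value is an extrapolation.
In FPKM, Ppt1 stood at 42.5, 32.2 and 35.5 in knockout, 53.1, 54.8 and 64.2 in knock-in and 55.2, 55.5 and 66.3 in wild-type retina. In RPE/choroid it stood at 47.7, 46.5 and 67.7 in knockout, 69.7, 74.1 and 117 in knock-in and 74.2, 81.6 and 99.7 in wild type. Library 2 was the highest of each RPE/choroid group in FPKM, but in CPM only of the knock-in group. Limma on log2(FPKM + 1) did not call Ppt1 in any of these 4 comparisons (adjusted p 0.12 to 0.864). In the authors' deposited table Ppt1 was the only member with a q under 0.05 between knockout and wild type, with q = 0.00293 in retina and 0.00347 in RPE/choroid, and likewise for knockout against knock-in.

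**Figure D3:**
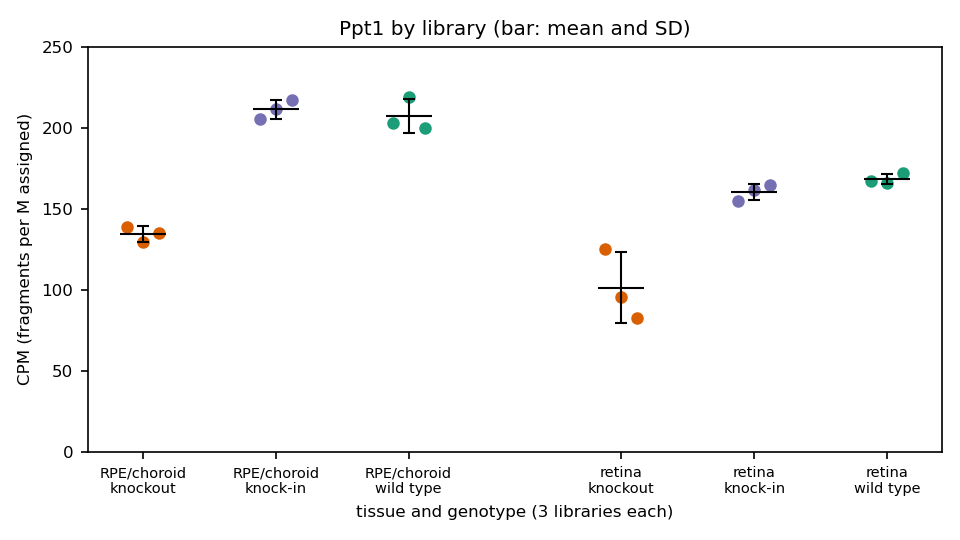
Ppt1 in each library as CPM, with 3 libraries for each tissue and genotype and bars for the mean and SD. The knockout libraries lie at 129 to 139 in RPE/choroid and at 82.4 to 125 in retina, under every knock-in and wild-type library of their tissue.

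The other 35 members did not pass in knockout retina. Their differences from wild type ran from log2 -0.18 to 0.25, and the median over the 36 members was 0.03, against -0.003 over all genes. At an unadjusted p under 0.05 there were 5 members, Ppt1 included (13.9%, against 12.5% of all genes). The next smallest p belonged to Lipa (log2 0.21, adjusted p = 0.321), Atg12 (log2 -0.17, adjusted p = 0.333) and Gla (log2 -0.18, adjusted p = 0.343). In knockout RPE/choroid the median over members was log2 -0.07, against -0.01 over all genes, and 28 of 36 values were negative. The 9 RPE markers summed to 7203 to 7878 FPKM in knockout and 9049 to 9536 in wild-type RPE/choroid, and 0 of them were at 0. As a mean log2 of CPM they stood at 8.53 to 8.66 in knockout and 8.59 to 8.73 in wild type, so the groups overlapped on that scale. Their part in these differences and in that of Ppt1 in RPE/choroid was not tested. At an unadjusted p under 0.05 there were 8 members in RPE/choroid (22.2%, against 15.5% of all genes). Gabarap averaged 257 ± 15.6 FPKM in knockout and 295 ± 16.6 in wild type (log2 -0.23, adjusted p = 0.142), and Hexa 100.0 ± 2.76 and 112 ± 1.11 (log2 -0.18, adjusted p = 0.156). Ulk1 averaged 9.66 ± 0.39 FPKM in knockout and 8.03 ± 0.39 in wild type (log2 0.20, adjusted p = 0.188). Gabarap, Hexa and Ulk1 are named for the smallest p after Ppt1, and their differences were small and did not pass. Without the wild-type library 2, which held the most rod transcripts, Gabarap passed (log2 -0.30, adjusted p = 0.0252).

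Knock-in tissues differed from wild type in 0 members, both in retina, where 0.265% of all genes were called, and in RPE/choroid, where 0.0647% were. DESeq2 gave 0 as well. At an unadjusted p under 0.05 there were 4 members in retina (11.1%, against 8.50% of all genes) and 0 in RPE/choroid (against 5.53%). In retina the 4 were Atp6v1h (log2 -0.20, adjusted p = 0.339), Smpd1 (log2 0.16, adjusted p = 0.357), Wipi1 (log2 0.21, adjusted p = 0.474) and Atg12 (log2 -0.18, adjusted p = 0.491). In RPE/choroid the smallest p belonged to Naglu (log2 -0.12), Smpd1 (log2 -0.14), Npc1 (log2 -0.14) and Hexa (log2 -0.08), each with an adjusted p of 0.875. Ppt1 itself had 57.4 ± 5.97 FPKM in knock-in and 59.0 ± 6.33 in wild-type retina, and 87.0 ± 26.2 and 85.2 ± 13.2 in RPE/choroid.
Between knock-in and knockout, the members next to Ppt1 in retina were Lamp2 (39.3 ± 4.50 FPKM in knock-in and 44.7 ± 3.90 in knockout, log2 -0.23, adjusted p = 0.0851), Lipa (log2 -0.17, adjusted p = 0.479) and Asah1 (log2 -0.11, adjusted p = 0.481). In RPE/choroid they were Glb1, Gabarap (log2 0.16, adjusted p = 0.367) and Lipa (log2 -0.16, adjusted p = 0.378).
Glb1 had 13.5, 12.6 and 14.98 FPKM in knock-in, 9.41, 8.81 and 9.89 in knockout and 15.02, 9.81 and 9.91 in wild-type RPE/choroid. Knock-in lay above knockout in every library, while wild type was split, with library 0 high and the other two near knockout. The difference of knock-in from knockout was log2 0.55 (SE 0.15, adjusted p = 0.201), and it passed when the wild-type library 0 was left out of the fit (adjusted p = 0.0147). Of the other pathway genes, 0 were called in any of the 6 comparisons of genotypes, out of 99 tested in retina and 101 in RPE/choroid. At an unadjusted p under 0.05 there were 12 between knockout and wild-type retina (12.1%, against 12.5% of all genes) and 15 between those of RPE/choroid (14.9%, against 15.5%). The nearest to the threshold in knockout RPE/choroid was Mtor, the growth kinase that holds autophagy back (log2 0.30, adjusted p = 0.0653), named after its value was seen.

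**Figure D4:**
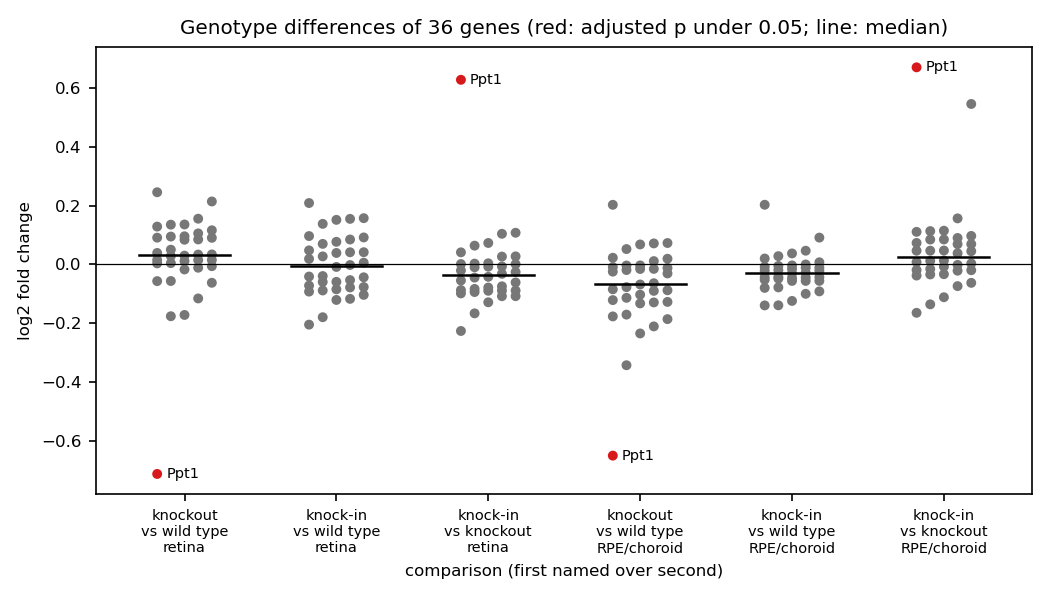
Log2 fold change of the 36 genes in the 6 comparisons of genotypes, with the first named genotype over the second, red points for an adjusted p under 0.05 and a line at the median. Ppt1 is the red point in 4 comparisons, near -0.7 for knockout against wild type and near 0.65 for knock-in against knockout, and the medians lie within 0.07 of 0.

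At the level of transcripts, 5 members were listed with at least 2 transcripts (Cln3, Gaa, Lamp2, Lipa and Psap), and the other 31 with 1. The tissues differed in which Psap transcript they used. NM_001146120 made up 76.7%, 78.9% and 80.8% of the Psap FPKM on average in knockout, knock-in and wild-type RPE/choroid, and 10.1%, 8.65% and 4.05% in retina. NM_011179 made up 8.99%, 8.73% and 8.57% in RPE/choroid, and 69.8%, 69.4% and 73.4% in retina. No library of 1 tissue came near those of the other. The deposited lengths of these transcripts, 2651 and 2660 bases, differ by 9 bases, and the GENCODE (GRCm38) transcripts tied to them, of 2646 and 2657 bases, by more. The longer GENCODE transcript holds an exon 8 of 9 bases that the shorter lacks, at chr10:60297537-60297545 on the plus strand. This short exon lies in the part that encodes saposin B and is known to be spliced in or out by tissue. The GENCODE transcripts are tied to 3 and 2 RefSeq identifiers, so the match of names is not one to one.
The transcript sequence around the exon is shown with 30 bases on each side, the exon in capitals, for the form with the exon and for the form without it.
NM_011179: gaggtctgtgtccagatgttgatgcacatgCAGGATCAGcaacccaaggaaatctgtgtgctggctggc
NM_001146120: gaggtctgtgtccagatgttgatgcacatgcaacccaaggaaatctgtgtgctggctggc
Within retina the share of NM_001146120 also differed between genotypes: it was 10.4%, 10.3% and 9.57% in knockout, 10.2%, 8.93% and 6.81% in knock-in and 4.07%, 3.21% and 4.87% in wild-type libraries. The knockout and knock-in libraries all lay above the wild-type ones. The mean of the RPE markers moved in the same direction, though not every marker did. Over 9 genes it was 4.49, 4.05 and 3.90 in knockout, 4.03, 4.11 and 3.94 in knock-in and 3.53, 3.47 and 3.56 in wild-type retina, as log2 of CPM. The sum of their FPKM overlapped, at 317 to 422 in knockout, 361 to 400.0 in knock-in and 362 to 376 in wild type. Of the 9 markers, 0 were at 0. Rlbp1 made up the largest part of that sum, with means of 213, 235 and 254 FPKM in knockout, knock-in and wild type. It went the other way: all its knockout (182 to 232 FPKM) and knock-in libraries (224 to 248.06) lay under the wild-type ones (248.13 to 257), narrowly so in knock-in. Rpe65 had 6.44 to 10.7 FPKM in knockout and 5.01 to 6.60 in knock-in, above 2.65 to 3.56 in wild type. Ttr, Lrat, Rgr and Slc6a20a lay above wild type in the same way, while Best1, Rdh5 and Otx2 overlapped. The part of the RPE markers in the Psap share was not tested. Transcript FPKM carry no counts of their own and share the gene's fragments, so these shares are given without a test. The 2 Lamp2 transcripts, in contrast, had like shares everywhere, with NM_010685 at 71.2%, 69.3% and 70.1% in knockout, knock-in and wild-type RPE/choroid, and at 71.7%, 69.2% and 69.6% in retina.

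**Figure D5:**
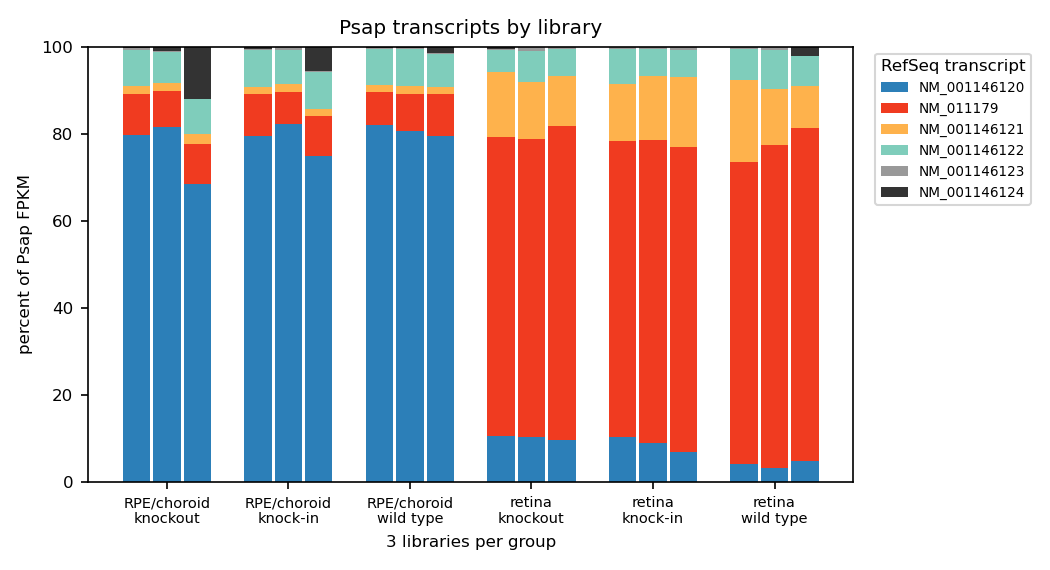
Share of the Psap FPKM on each of its 6 RefSeq transcripts, as stacked percentages for each of the 18 libraries, 3 per group. NM_001146120 fills 68.4% to 82.2% of each RPE/choroid bar, and NM_011179 fills 68.3% to 76.4% of each retinal bar.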

How the data were processed

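The submitters' processing notes name TopHat, Bowtie2 and Cufflinks and the mm9 build. The sources used here give no versions, annotation or use of strand. The deposited gene tables hold fragments per gene, which are expected counts (98.4% whole in RPE/choroid and 98.5% in retina), and were rounded here. The same tables hold FPKM per library, per the file headers, and deposited transcript tables hold FPKM and transcript length. The authors' comparison tables give a q-value per gene, per the file headers. Estimates had failed for 3 gene values in RPE/choroid and 10 in retina, 0 of them of a member.

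The quasi-likelihood test of edgeR 4.0.16 (R 4.3.3) was run on the counts (robust, TMM, filterByExpr), with the 9 libraries of a tissue in 1 fit for genotypes and all 18 in 1 fit for tissues and interactions. P-values were Benjamini-Hochberg adjusted over all tested genes, and genes under 0.05 were called. All 36 members were tested in every comparison. Biological coefficients of variation were 0.154 (RPE/choroid), 0.114 (retina) and 0.137 (both). CPM (fragments per M assigned) were computed from the counts as deposited. The fits were tested on simulated data with 1 spread for all genes. For knockout against wild type, 19.4% of 1.5-fold changes were found in RPE/choroid and 64.2% in retina. Of 2-fold changes, 89.6% and 95.5% were found. Changes under 2-fold between genotypes can thus be missed. For the wild-type tissues the shares were 43.3% at 1.5-fold and 92.5% at 2-fold. Libraries of a group correlated at r 0.985 to 0.998 over genes, and no pair was a copy.

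The members, the lists of other pathway genes and of markers, the tests and the alternatives were chosen with earlier results of these data known. The text names every member, each called member and the 4 with the smallest p in a comparison of genotypes, and in the tissue comparison up to 4 other genes per list with the largest differences past 2-fold. Alternatives were DESeq2 1.42.0, RLE scaling, limma 3.58.1 on log2(FPKM + 1) and log2(FPKM + 0.1), no filter, a mean FPKM of at least 1, the compared groups alone, glmTreat (1.2-fold for genotypes and interactions, 2-fold for tissues), the table number as a block, terms for sex and for RPE or rod markers, and each library left out. Promoter windows are from RefSeq (GRCm38.p6) and the Psap exon from GENCODE (GRCm38). They were not combined with mm9 positions.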

Additional observations from a re-analysis of the deposited data

How the results depend on the processing

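For knockout against wild type in retina, 1 member (Ppt1) was called, and 0 with glmTreat or with limma on either FPKM scale. With each library left out the count was 0 to 1. For knock-in against knockout in retina the count of 1 became 2 with DESeq2 (Lamp2 and Ppt1), and 0 with the compared groups only, with glmTreat and with limma on either FPKM scale. With each library left out it was 1, which was Lamp2 in place of Ppt1 without the knock-in library 0. Between knockout and wild-type RPE/choroid the count of 1 became 3 with DESeq2 (Gabarap, Hexa and Ppt1), 2 with a rod marker term (Gabarap and Ppt1), 0 with limma on either FPKM scale, and 1 to 2 with each library left out. For knock-in against knockout in RPE/choroid it became 2 with DESeq2 or the compared groups only (Glb1 and Ppt1), 0 with limma on either FPKM scale, and 1 to 2 with each library left out. The cause of these shifts was not tested. The log2 difference of Ppt1 kept its sign in every setting.

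With glmTreat against 2-fold, 11 members were higher and 1 lower in wild-type RPE/choroid, 10 and 1 in knockout and 11 and 1 in knock-in mice. With each library left out, the counts were 24 to 26 and 8 in wild type, 23 to 25 and 7 in knockout and 24 to 26 and 6 to 8 in knock-in mice. For the interaction of tissue and knockout, 0 members became 1 (Glb1) without the wild-type RPE/choroid library 2. No log2 difference recomputed for a single member changed sign, which covers those called between the wild-type tissues and those with the smallest p between genotypes. Medians over the members that lay near 0 did change sign: for the interaction of tissue and knock-in, log2 -0.028 became 0.0014 and 0.0004 with limma and 0.0044 without the knock-in retinal library 2. For knock-in against wild-type retina, -0.0053 became 0.054 with the RPE marker term, 0.020 without the knock-in library 1 and 0.0072 without the wild-type library 2.

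By log2 CPM less the group mean, the table numbers did not pair the samples. Of the 15 pairs of groups, 1 correlated above 0.1 for all 3 numbers (wild-type retina with knock-in RPE/choroid, r 0.107 to 0.404). These groups were not compared with each other directly. FPKM were not checked in this way, and there library 2 stood apart in some genes. The rod marker Rp1 had 641, 649 and 677 FPKM in library 2 of knockout, knock-in and wild-type retina. In libraries 0 and 1 of these groups it had 447 to 532. The part of such an effect in the FPKM spreads and limma results was not tested. With the number as a replicate block, 2 members were called for knock-in against knockout in retina (Lamp2 and Ppt1), and the counts of the other comparisons stayed within 1.5 times those reported. A sex term, read from Xist and Ddx3y, left Ppt1 the called member in all 4 comparisons. Libraries 0 to 2 read as male, female and female in knockout retina and as male, male and female in wild-type retina. Those of knock-in retina all read as female. In RPE/choroid all libraries but the knock-in library 2 read as male. Sex was thus not balanced over genotypes or tissues. With 3 libraries a group, p-values cover the spread between these libraries only.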

Other observations

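Genes near Ppt1 were looked up after its values had been seen. The search covered 1 Mb on each side, but all tested genes began after the start of Ppt1, by 23 kb (Cap1) to 952 kb (Rhbdl2). For knockout against wild type, 0 of 13 tested genes were called in retina, against 0.98% of all genes. In RPE/choroid 2 of 15 were called, against 0.472% of all genes. These were BC002163 (log2 -7.97, edgeR adjusted p = 2.18e-05) and Rhbdl2 (log2 1.78, adjusted p = 0.0271). BC002163 is listed at the same distance as Ndufs5 (log2 0.54, adjusted p = 0.322), so their fragments may be shared. In knockout retina both went the same way without passing (BC002163 log2 -2.37, adjusted p = 0.443, and Ndufs5 log2 0.96, adjusted p = 0.203). Cap1, the nearest of them, differed by log2 -0.22 in knockout RPE/choroid (adjusted p = 0.217) and by log2 -0.04 in knockout retina (adjusted p = 0.806). In knock-in tissues 0 of these genes were called against wild type, where 0.265% of all genes were called in retina and 0.0647% in RPE/choroid.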
